A study of Mus musculus with 9 samples.

Results

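The Meis, Pbx and Pknox genes and their relative Tgif1 encode TALE homeodomain proteins, and 8 of them were followed here in dorsal root ganglia (DRG) of mouse embryos with a deletion in Meis2. The genes were chosen by name from a table of raw counts with 55247 rows: Meis1, Meis2, Meis3, Pbx2, Pbx3, Pknox1, Pknox2 and Tgif1. All 8 were among the 13200 genes that reached 100 counts in 1 or more of the 9 libraries. Whole DRGs were taken at E18.5, shortly before birth, from 3 genotypes, with 3 libraries each. WT (wild type) embryos are labelled without an engineered allele, and the sources do not describe their alleles further. In Isl1Cre/+ embryos, Cre recombinase was inserted in 1 copy of Isl1, a LIM homeodomain gene of sensory neurons. Isl1Cre/+::Meis2LoxP/LoxP embryos, called mutant here, carried the same Isl1 allele and, in addition, LoxP sites on both sides of exon 8 of Meis2 on both chromosomes. Cre made from this allele acts in cells with past or present Isl1 expression, so other cells of the ganglion keep an intact Meis2. The mutant therefore shared the single intact copy of Isl1 with Isl1Cre/+ embryos but not with WT embryos. The sources do not state whether a library came from 1 embryo or from a pool, so the p-values measure the spread between these libraries only. The comparisons asked whether the RNA of other TALE genes was higher where Meis2 was lower.

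TALE homeodomains differ from other homeodomains by extra amino acids in the loop between their first and second helices. Meis and Pknox (also called Prep) proteins bind Pbx proteins through conserved regions in front of the homeodomain, and these pairs bind DNA together, often with a Hox protein. Binding to a Meis or Pknox partner also keeps Pbx proteins in the nucleus. Tgif1 has a TALE homeodomain as well but acts mainly as a repressor of transcription, among others in TGF-beta and retinoid signalling. Meis1 and Meis2 are known as genes induced by retinoic acid, and in the DRG Meis2 is expressed in some classes of touch-sensing neurons and in proprioceptors.

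The part of Meis2 that the LoxP sites flank is shown first, since it sets what a read on this gene can tell. In mm10, Meis2 (ENSMUSG00000027210.20) occupies chromosome 2 from 115863064 to 116065839 and is read from the reverse strand. In GENCODE release M21, exon 8 of 12 in transcript Meis2-203, which encodes 470 residues, spans chr2:116000131-116000276. This exon has 146 bases and is present in 6 of 6 coding transcripts. Its sequence on the coding strand, with the bases that encode the start of the homeodomain in capitals, is given for its reading frame.
Meis2 exon 8: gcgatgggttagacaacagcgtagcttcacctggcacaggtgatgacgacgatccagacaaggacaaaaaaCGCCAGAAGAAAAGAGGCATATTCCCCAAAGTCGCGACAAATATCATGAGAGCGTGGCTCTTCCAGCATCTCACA
Exon 8 contributed to codons 252 to 300 and held 75 of the 189 bases that encode the homeodomain, residues 276 to 338. Its length leaves a remainder of 2 bases on division by 3. Read from the annotated transcript without exon 8, the frame met a stop codon after 290 residues, of which the last 39 follow the join, so the predicted product ends without a homeodomain. This product was derived from the sequence and was not measured. The exon makes up 1.21% of the 12043 exonic bases of Meis2. Reads on the remaining exons were counted for the gene whether or not a transcript held exon 8.

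**Figure D1:**
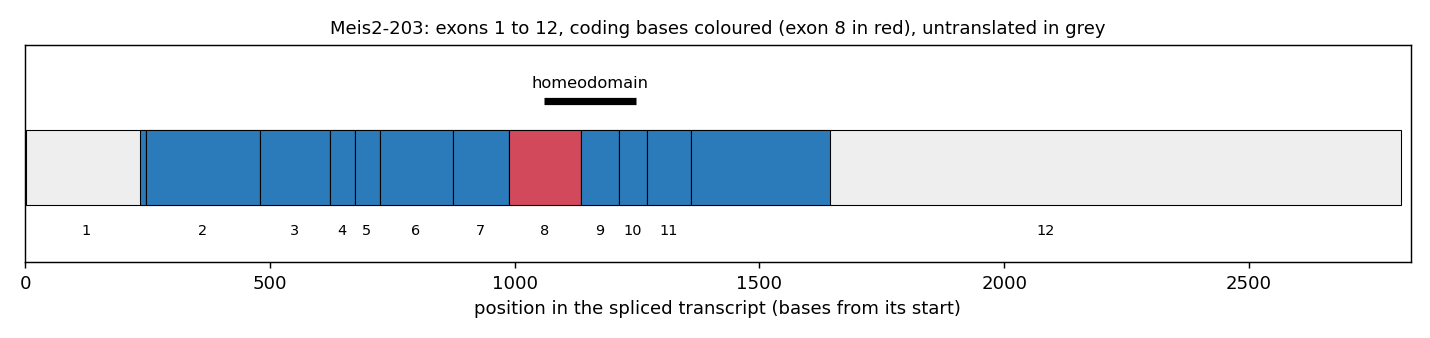
The spliced transcript Meis2-203 is drawn to scale, in bases from its start, with exon numbers below, coding bases coloured, untranslated bases in grey and exon 8 in red. The black bar marks the 189 homeodomain bases, of which the first 75 fall in exon 8.

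The 8 genes differ in how near their homeodomains are to that of Meis2, and the helix that contacts DNA shows it. The sequences below are the 54 coding bases of the third homeodomain helix in each gene. The capitals mark the 6 codons of its most conserved stretch, which begins at the tryptophan codon. All 8 sequences were read from GENCODE M21 transcripts, and an intron interrupts each of these stretches in the genome.
Meis1: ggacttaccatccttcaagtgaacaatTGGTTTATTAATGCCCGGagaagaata
Meis2: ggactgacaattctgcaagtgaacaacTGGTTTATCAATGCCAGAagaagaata
Meis3: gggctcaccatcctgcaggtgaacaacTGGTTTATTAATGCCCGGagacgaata
Pknox1: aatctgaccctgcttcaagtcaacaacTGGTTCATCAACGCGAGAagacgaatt
Pknox2: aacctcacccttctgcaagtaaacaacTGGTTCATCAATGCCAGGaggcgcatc
Tgif1: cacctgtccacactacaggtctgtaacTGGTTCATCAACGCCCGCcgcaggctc
Pbx2: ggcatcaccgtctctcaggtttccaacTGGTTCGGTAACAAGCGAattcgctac
Pbx3: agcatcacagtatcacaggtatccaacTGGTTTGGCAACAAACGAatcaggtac
Against Meis2, the stretch of Meis1 differed at 8 bases and that of Meis3 at 9 bases, and in neither did a residue change. Pknox1 and Pknox2 each differed at 13 bases and 2 residues, and Tgif1 at 22 bases and 5 residues. Pbx2 differed at 29 bases and 8 residues, and Pbx3 at 26 bases and 9 residues. Within the 6 capital codons, 2 residues differed in Pbx2 and in Pbx3 and none in the other genes. Over the 63 residues of the homeodomain, identity to Meis2 was 98.4% for Meis1, 96.8% for Meis3, 71.4% for Pknox2, 69.8% for Pknox1, 49.2% for Tgif1 and 42.9% for both Pbx2 and Pbx3.

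Before the values, the libraries need a word. They held 23854607 to 29103444 counts. WT library 1 and mutant library 2 stood apart, with median rank correlations to the others of 0.981 and 0.979 across genes, against 0.991 to 0.995 for the remaining libraries. The 8 listed sensory neuron markers all passed the count filter and summed to 7164 to 9869 cpm (counts per 1000000 counts) in each library. None of the 6 listed spinal cord markers passed it. Mutant library 2 had the highest sum of the 6 skeletal muscle markers (1494.9 cpm, against 52.4 to 655 in the others), of the 6 red cell markers (3966 cpm, against 343 to 2210) and of the 6 macrophage markers (118 cpm, against 46.4 to 72.4). Its sum of the 8 fibroblast and mesenchyme markers was also the highest (5521 cpm, against 2996 to 5176), and 0 of these 8 were called or had an unadjusted p below 0.05 in any comparison by edgeR, DESeq2 or limma voom. It had the lowest sums of the 8 nociceptor markers (2430 cpm, against 2689 to 3088) and of the sensory neuron markers (7164 cpm, against 7615 to 9869). All 6 red cell markers and 4 of the 5 tested muscle markers were called higher in the mutant than in Isl1Cre/+, where 1.41% of all tested genes were called higher (edgeR, by the rule given with the members). The same numbers were called lower in Isl1Cre/+ than in WT, where 1.14% of all tested genes were called lower, and these comparisons share the Isl1Cre/+ libraries. With limma voom, all 6 red cell markers were called in both comparisons but only 2 of 5 muscle markers in the former and 1 of 5 in the latter. Single markers of other lists were called as well (edgeR). In the mutant relative to Isl1Cre/+, 2 of 4 tested cartilage and bone markers and 1 of 2 tested sympathetic neuron markers (Dbh) were called higher and 1 of 7 endothelial and mural markers lower, where 0.265% of all tested genes were called lower. In Isl1Cre/+ relative to WT the same lists had 2 and 1 called lower and 2 called higher, where 0.258% of all tested genes were called higher. In the mutant relative to WT, 1 of 2 sympathetic neuron markers (Th) and 1 of 8 nociceptor markers (Trpv1) were called lower, also beside 0.258%. The part of such cells in the values of the members was not tested. Mitochondrial genes took 8.58% of the counts in WT library 1, 7.19% in mutant library 1, 5.37% in mutant library 2 and 3.04% to 3.99% in the others. Isl1 (ENSMUSG00000042258.13) had 227, 273 and 284 cpm in the WT libraries, 165, 191 and 202 cpm in the Isl1Cre/+ libraries and 216, 170 and 178 cpm in the mutant libraries. Every library with the Cre allele lay below every WT library. Relative to WT, the log2 fold change of Isl1 was -0.48 both in Isl1Cre/+ and in the mutant (95% confidence intervals -0.78 to -0.19 and -0.79 to -0.17, unadjusted p = 0.00593 and 0.00756, edgeR). Of the 8 sensory neuron markers, Isl1 was the 1 called in these comparisons, lower in both. Of all tested genes, 1.14% were called lower in Isl1Cre/+ and 0.258% in the mutant, relative to WT.

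Meis2 fell in the mutant, and it was the only 1 of the 8 genes that was called changed. To be called changed, a gene had to differ by a factor of 1.2 or more, with an unadjusted p below 0.05 in edgeR's quasi-likelihood test. Relative to WT, 1 of 8 members was called, where 0.318% of all tested genes were called, 0.0606% higher and 0.258% lower. Relative to Isl1Cre/+, 1 of 8 was called, where 1.67% of all tested genes were, 1.41% higher and 0.265% lower. Between Isl1Cre/+ and WT, 0 of 8 were called, where 1.40% of all tested genes were, 0.258% higher and 1.14% lower. At an unadjusted p under 0.05 alone, none of the 8 passed in that last comparison, and DESeq2 and limma voom called none either. Over the 14 alternative settings of each comparison, libraries left out in turn included, the members called were always Meis2 and no other for the mutant, and none for Isl1Cre/+ against WT.

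Values are cpm after TMM scaling of library sizes. Meis2 reached 110, 103 and 95.4 cpm in the WT libraries. The Isl1Cre/+ libraries held 95.5, 102 and 89.5 cpm. Mutant libraries held 40.7, 40.8 and 41.2 cpm, close to each other and below the lowest control library. Between 2537 and 2919 reads were counted for Meis2 in each control library and between 1004 and 1084 in each mutant library. The level in the mutant was 0.399 of that in WT (95% confidence interval 0.348 to 0.457, log2 fold change -1.33, SE 0.0844). Against Isl1Cre/+ it was 0.427 of the control level (0.385 to 0.475, log2 fold change -1.23, SE 0.0651). The adjusted p was 0.00779 and 0.00215, respectively (edgeR, Benjamini-Hochberg over all tested genes), and in both comparisons Meis2 was the 1 gene under 0.05, which is 0.00758% of those tested. Left without WT library 1, the log2 fold change relative to WT was -1.28, and without mutant library 2 it was -1.30 relative to WT and -1.22 relative to Isl1Cre/+. Among the fits that left out 1 library, the adjusted p relative to WT was above 0.05 without WT library 2 (0.0822) and without mutant library 1, 2 or 3 (0.145, 0.0699 and 0.195), and relative to Isl1Cre/+ without mutant library 3 (0.0569). Between Isl1Cre/+ and WT, Meis2 differed by -0.09 on the log2 scale (95% confidence interval -0.27 to 0.10), and the libraries of these genotypes overlapped. In RNA of whole ganglia, fewer cells that express a gene and less RNA per cell cannot be told apart.

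**Figure D2:**
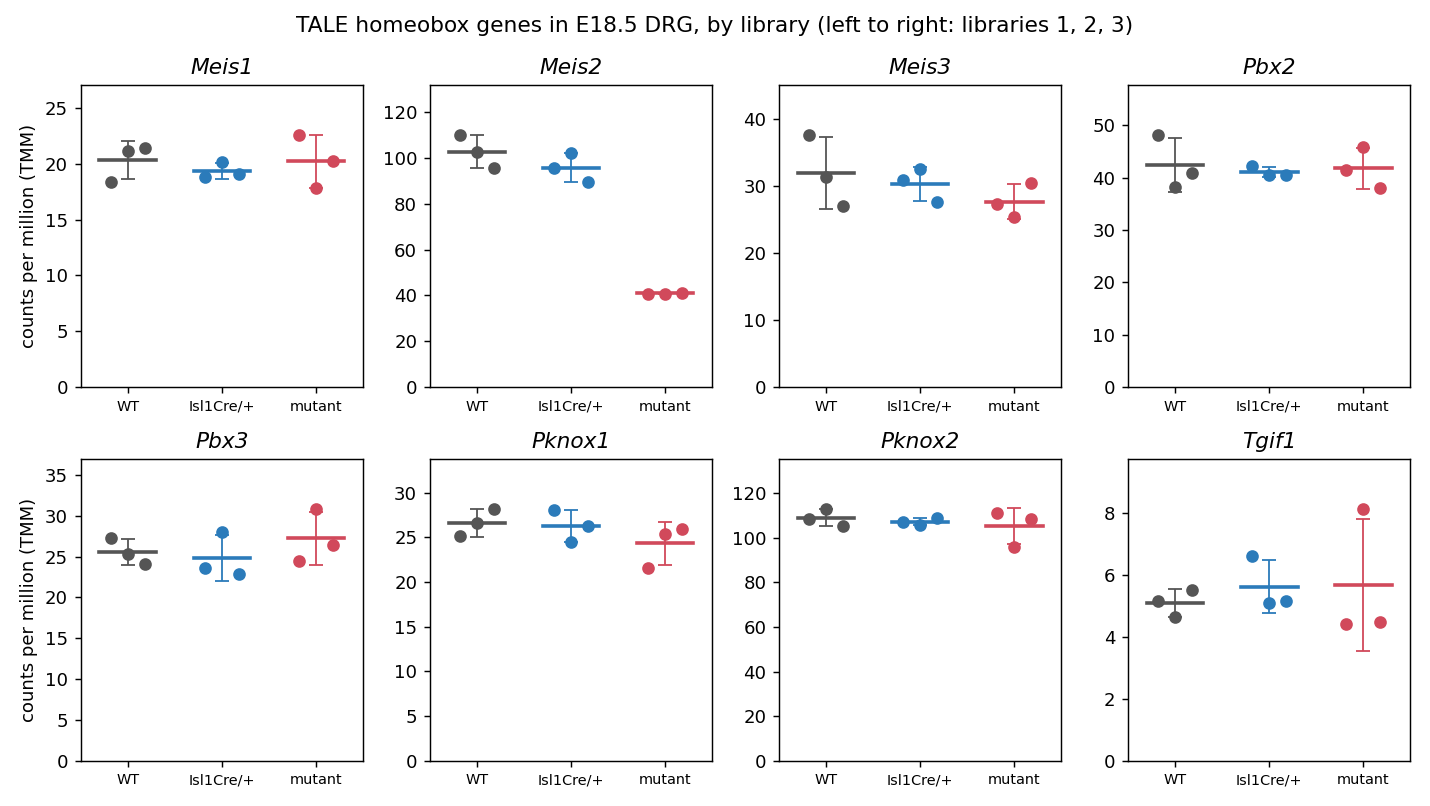
Levels in cpm (TMM-scaled, axes from 0) of each of the 8 genes, with 1 point per library, the mean as a horizontal bar and the SD over 3 libraries as whiskers. Only in the panel of Meis2 do the 3 mutant libraries, 40.7 to 41.2 cpm, separate from the controls, and in that of Tgif1 mutant library 2 stands above the other mutant libraries.

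The remaining 2 Meis genes, whose homeodomains are nearest to that of Meis2, were not higher in the mutant beyond the spread of the libraries. Meis1 (ENSMUSG00000020160.18, chromosome 11, 18879817 to 19018985, reverse strand) is a partner of Pbx and Hox proteins in blood and limb development. Its level was 18.4, 21.2 and 21.4 cpm in WT, 18.9, 20.2 and 19.1 cpm in Isl1Cre/+ and 22.6, 17.8 and 20.3 cpm in the mutant. The highest and the lowest of the 9 values both came from mutant libraries. Its log2 fold change was -0.01 relative to WT (95% confidence interval -0.29 to 0.28) and 0.06 relative to Isl1Cre/+ (-0.17 to 0.30). The upper ends of these intervals correspond to rises of 21.2% and 22.8%. The direction turned with the setting, from -0.01 to 0.09 relative to WT without mutant library 2 and from 0.06 to -0.03 relative to Isl1Cre/+ without mutant library 1. Exons of Gm37818 on the same strand cover 9.77% of the exonic bases of Meis1 and exons of Gm16140 on the opposite strand cover 8.51%. The strand option of the counting is not given in the sources used here, so reads on these stretches cannot be assigned with certainty.

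Meis3 (ENSMUSG00000041420.18, chromosome 7, 16175090 to 16186504, forward strand), known for its role in hindbrain patterning, had 37.6, 31.3 and 26.997 cpm in WT, 30.9, 32.5 and 27.6 cpm in Isl1Cre/+ and 27.3, 25.3 and 30.5 cpm in the mutant. WT library 1 gave the highest value, and the mutant libraries overlapped with both controls. Meis3 differed on the log2 scale by -0.21 relative to WT (95% confidence interval -0.53 to 0.12, unadjusted p = 0.177, edgeR) and -0.13 relative to Isl1Cre/+ (-0.35 to 0.09, unadjusted p = 0.202, edgeR). Without WT library 1 the first of these was -0.07, and without WT library 3 it was -0.32. The upper ends of the main intervals correspond to rises of 8.50% and 6.37%.

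The Pknox genes, which share the Meis type of Pbx-binding region, showed the same picture at higher precision. Pknox1 (ENSMUSG00000006705.13, chromosome 17, 31564734 to 31607693, forward strand) had 25.1, 26.6 and 28.2 cpm in WT, 28.1, 24.5 and 26.3 cpm in Isl1Cre/+ and 21.6, 25.4 and 25.9 cpm in the mutant. Mutant library 1 was the lowest of the 9, and the groups overlapped. Pknox1 had a log2 fold change of -0.13 relative to WT (95% confidence interval -0.38 to 0.12) and -0.11 relative to Isl1Cre/+ (-0.33 to 0.11). Pknox2 (ENSMUSG00000035934.16, chromosome 9, 36890982 to 37147407, reverse strand) is a paralogue of Pknox1 and had 109, 113 and 105 cpm in WT, 107, 106 and 109 cpm in Isl1Cre/+ and 111, 95.9 and 108 cpm in the mutant. The low value came from mutant library 2, and the other mutant libraries lay within the range of the WT libraries. Pknox2 differed by -0.05 relative to WT (95% confidence interval -0.25 to 0.15) and by -0.03 relative to Isl1Cre/+ (-0.19 to 0.13) on the log2 scale. Without mutant library 2 these differences became 0.03 and 0.04. The largest rises inside the main intervals were 11.3% and 9.39% for Pknox2 and 8.31% and 7.76% for Pknox1.

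Pbx2 and Pbx3 encode partners with which Meis and Pknox proteins form complexes. Pbx2 (ENSMUSG00000034673.14, chromosome 17, 34591266 to 34597400, forward strand) had 48.1, 38.3 and 41.0 cpm in WT, 42.3, 40.5 and 40.6 cpm in Isl1Cre/+ and 41.5, 45.8 and 38.0 cpm in the mutant. WT library 1 and mutant library 2 gave the highest and the second highest value. Pbx2 had a log2 fold change of -0.02 relative to WT (95% confidence interval -0.30 to 0.25) and 0.02 relative to Isl1Cre/+ (-0.16 to 0.21). It became 0.08 relative to WT without WT library 1, and -0.04 relative to Isl1Cre/+ without mutant library 2. Exons of Gpsm3 on the same strand cover 6.24% of the exonic bases of Pbx2. Pbx3 (ENSMUSG00000038718.15, chromosome 2, 34171457 to 34373142, reverse strand) had 27.3, 25.3 and 24.1 cpm in WT, 23.6, 28.0 and 22.9 cpm in Isl1Cre/+ and 24.5, 30.8 and 26.4 cpm in the mutant. Mutant library 2 was the highest, and every mutant library lay above the lowest library of each control. The log2 fold change of Pbx3 was 0.09 relative to WT (95% confidence interval -0.17 to 0.35, unadjusted p = 0.447, edgeR) and 0.13 relative to Isl1Cre/+ (-0.13 to 0.40, unadjusted p = 0.280, edgeR). Left without mutant library 2, it was 0.01 and 0.04.

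Tgif1 (ENSMUSG00000047407.17, chromosome 17, 70844205 to 70853546, reverse strand) was the least abundant of the 8, with 109 to 214 counts in the mutant libraries. It had 5.16, 4.64 and 5.52 cpm in WT, 6.60, 5.11 and 5.15 cpm in Isl1Cre/+ and 4.44, 8.13 and 4.47 cpm in the mutant. Mutant library 2 alone lay above all other libraries, and the other mutant libraries lay below every control library. Tgif1 had a log2 fold change of 0.15 relative to WT (95% confidence interval -0.46 to 0.77) and 0.02 relative to Isl1Cre/+ (-0.60 to 0.63), the widest intervals among the 8 genes. Without mutant library 2 the direction turned, to -0.18 relative to WT (unadjusted p = 0.355, edgeR) and -0.33 relative to Isl1Cre/+ (unadjusted p = 0.0951, edgeR). This is the library with the highest sums of muscle, red cell, macrophage and fibroblast markers and the lowest sums of nociceptor and sensory neuron markers, and the part of these in the level of Tgif1 was not tested. Between Isl1Cre/+ and WT, Tgif1 differed by 0.15 on the log2 scale (95% confidence interval -0.21 to 0.51).

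**Figure D3:**
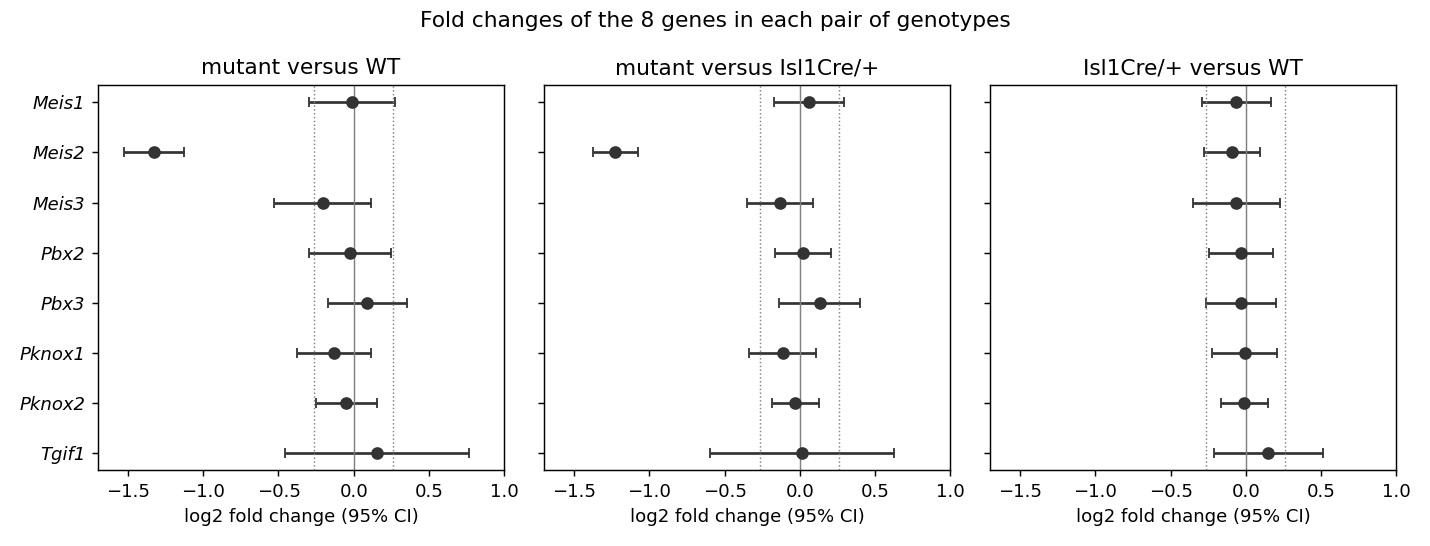
Log2 fold changes of the 8 genes in the 3 pairs of genotypes, with 95% confidence intervals from edgeR (3 libraries per genotype). Dotted lines mark a fold change of 1.2 in either direction, and only Meis2 in the comparisons of the mutant lies beyond them with its whole interval.

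Side by side, the 7 genes other than Meis2 showed no common direction. Relative to WT, 2 were higher and 5 lower in the mutant, with log2 fold changes from -0.21 for Meis3 to 0.15 for Tgif1 and a median of -0.02, where the median over all tested genes was -0.01. Relative to Isl1Cre/+, 4 were higher and 3 lower, from -0.13 for Meis3 to 0.13 for Pbx3, with a median of 0.02 beside 0.00 over all tested genes. The comparisons share the mutant libraries, so these counts are not separate evidence. The unadjusted p of the 7 genes ranged from 0.177 to 0.945 relative to WT and from 0.202 to 0.954 relative to Isl1Cre/+ (edgeR), and the lowest adjusted p was 0.9999 and 0.9997, respectively. For none of the 7 did the mutant libraries separate from either control. Of all tested genes, 2.76% separated mutant from WT libraries and 7.65% separated mutant from Isl1Cre/+ libraries. Isl1Cre/+ and WT libraries separated for 0 of the 8 members, beside 6.08% of all tested genes. At these shares, a count of 0 is near what all genes gave for a list of this size. A p above the threshold does not show that a gene stayed the same, and the intervals give the rises that these data cannot tell from 0. Their upper ends ran from 8.31% for Pknox1 to 70.1% for Tgif1 relative to WT, and from 6.37% for Meis3 to 54.3% for Tgif1 relative to Isl1Cre/+. Without mutant library 2, the 7 log2 fold changes ran from -0.18 to 0.09 relative to WT and from -0.33 to 0.15 relative to Isl1Cre/+, and without WT library 1 they ran from -0.17 to 0.16 relative to WT.

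The upper ends themselves depended on single libraries. For Tgif1 the upper end relative to WT was a rise of 18.7% without mutant library 2 and at most 98.7%, without mutant library 3. Relative to Isl1Cre/+ it was 5.21% without mutant library 2 and 82.6% without Isl1Cre/+ library 1. For Meis3 it ran from 0.451% without WT library 3 to 17.1% without mutant library 2 relative to WT, and from 2.23% without mutant library 3 to 13.6% without Isl1Cre/+ library 2 relative to Isl1Cre/+. Its upper end moved by more than 1.5 times with each library left out except mutant library 3 relative to WT. For Pknox1 it ran from 5.44% without WT library 1 to 16.3% without WT library 3 relative to WT, and it was also higher there without WT library 2 (13.8%) and mutant library 1 (15.2%). Relative to Isl1Cre/+ it was 14.5%, 12.4% and 12.3% without Isl1Cre/+ library 1, Isl1Cre/+ library 3 and mutant library 1. For Pknox2 it was 18.2% without WT library 2 and 19.9% without mutant library 2, both relative to WT. For Meis1 it was 32.6% relative to WT without mutant library 2 and 14.8% relative to Isl1Cre/+ without mutant library 1, and for Pbx2 9.21% relative to Isl1Cre/+ without mutant library 2. The other upper ends stayed within 1.5 times of those from all libraries.

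To compare levels between genes, cpm were divided by the length of all annotated exons of a gene in kilobases (RPKM). In WT, this level was 11.7 ± 1.40 RPKM for Pbx2, 10.5 ± 0.368 for Pknox2, 10.1 ± 1.68 for Meis3 and 8.53 ± 0.601 for Meis2 (SD, n = 3). These 4 formed the upper group, in which each gene overlapped with the next lower one over the libraries. Pbx3 with 4.19 ± 0.263 RPKM and Pknox1 with 3.84 ± 0.221 RPKM followed and overlapped with each other (SD, n = 3). Meis1 with 1.93 ± 0.159 RPKM and Tgif1 with 0.908 ± 0.0793 RPKM were lowest, each separate from the genes above it (SD, n = 3). In Isl1Cre/+ the order was the same, with 7.95 ± 0.524 RPKM for Meis2 (SD, n = 3). In the mutant, Meis2 dropped from the fourth to the sixth place, at 3.40 ± 0.0212 RPKM, below Pbx3 (4.46 ± 0.530 RPKM) and beside Pknox1 (3.51 ± 0.341 RPKM), with which it overlapped (SD, n = 3).

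The order of levels depended on the length used. With the length of the longest annotated transcript in place of all exons, Pknox2 was first in WT with 29.97 ± 1.05 RPKM, and Meis2 was the second with 18.7 ± 1.32 RPKM, ahead of Meis3 with 16.6 ± 2.77 and Pbx2 with 13.8 ± 1.66 (SD, n = 3). Pbx3, Pknox1, Meis1 and Tgif1 kept their places. On this scale Meis2 dropped from the second to the fifth place in the mutant, with 7.44 ± 0.0465 RPKM (SD, n = 3), between Pbx3 and Pknox1 and overlapping with neither. Which transcripts the reads came from cannot be read from counts per gene.

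**Figure D4:**
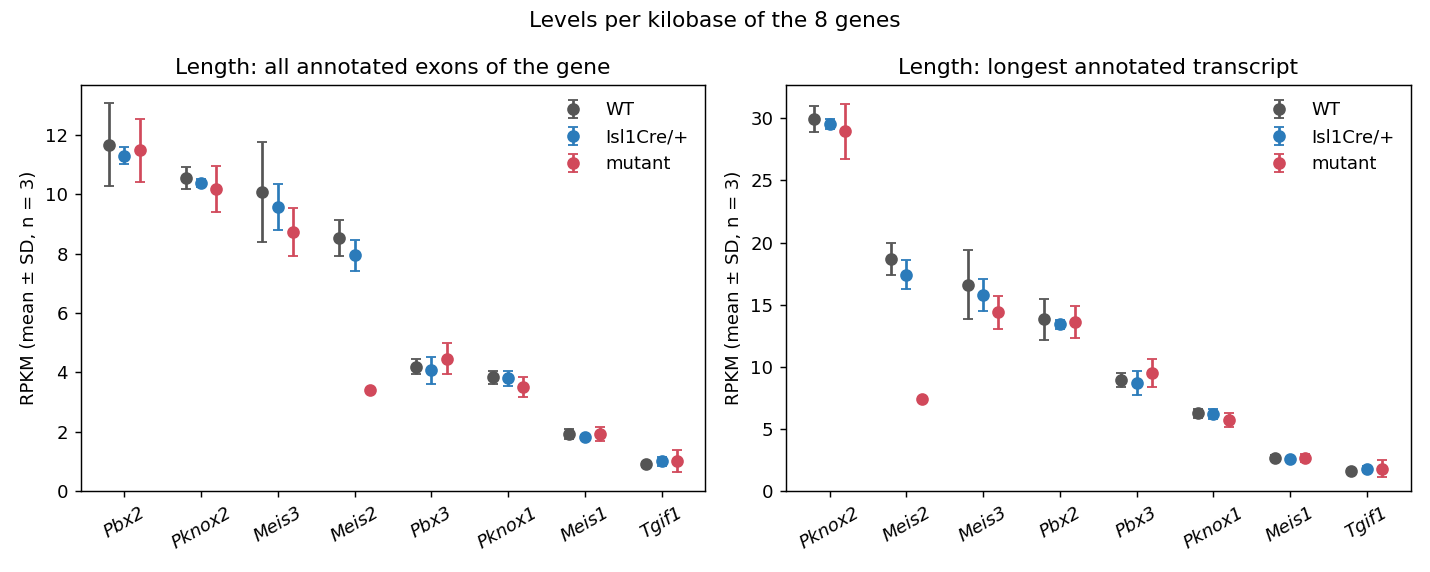
Levels per kilobase of the 8 genes in the 3 genotypes (RPKM, mean ± SD, n = 3), on the left with the length of all annotated exons and on the right with that of the longest transcript, each ordered by the WT level. Only Meis2 has a mutant value far from its controls, and the gene with the highest WT level is Pbx2 on the left and Pknox2 on the right.

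Summed per length, the Meis genes were lower in the mutant by 6.49 RPKM relative to WT, of which Meis2 accounted for 5.13 RPKM. The sum of Meis1, Meis2 and Meis3 (all exons) was 22.7, 20.4 and 18.47 RPKM in WT, 19.5, 20.6 and 17.9 RPKM in Isl1Cre/+ and 14.1, 13.1 and 14.9 RPKM in the mutant. All mutant libraries lay below all control libraries, and the mutant mean was 68.4% of that of WT and 72.6% of that of Isl1Cre/+. Meis2 made up 41.6% ± 1.38 of this sum in WT, 41.1% ± 0.330 in Isl1Cre/+ and 24.3% ± 1.53 in the mutant (SD, n = 3). With the longest transcripts as lengths, the mutant sum was 64.5% and 68.6% of those of WT and Isl1Cre/+, and Meis2 made up 49.3% ± 1.55 of it in WT and 30.4% ± 1.77 in the mutant (SD, n = 3).

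The sum of the 4 other genes with a Meis type of Pbx-binding region, Meis1, Meis3, Pknox1 and Pknox2, was 26.4 ± 1.48 RPKM in WT, 25.6 ± 0.635 in Isl1Cre/+ and 24.3 ± 1.58 in the mutant (SD, n = 3). It ranged from 22.6 to 25.8 RPKM in the mutant and from 24.8 to 27.7 RPKM in the controls, so the mutant mean was not above that of either control. With Meis2 added, the sum was 36.8, 35.2 and 32.7 RPKM in WT, 33.9, 34.4 and 32.3 RPKM in Isl1Cre/+ and 28.0, 26.0 and 29.2 RPKM in the mutant, which separated the mutant from both controls. Pbx2 and Pbx3 together held 15.9 ± 1.62 RPKM in WT, 15.4 ± 0.430 in Isl1Cre/+ and 15.9 ± 1.497 in the mutant (SD, n = 3), with overlapping libraries. No test was run on these sums, since Meis2 is part of them or since they follow from the values of the genes above.

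**Figure D5:**
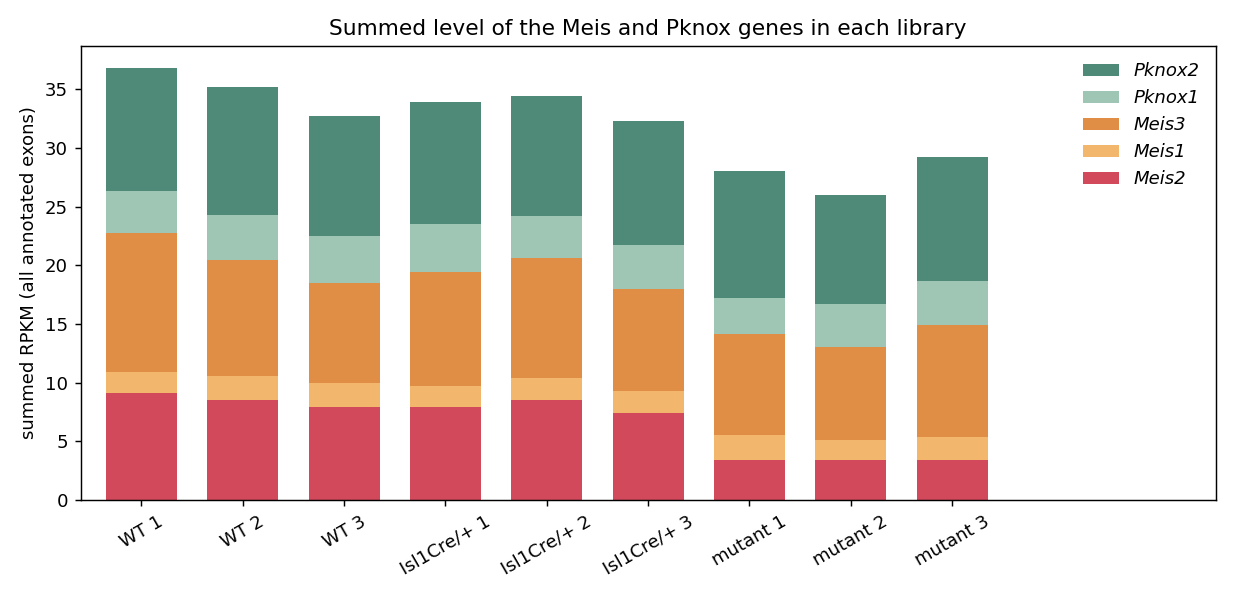
Stacked levels per kilobase (RPKM, all annotated exons) of Meis2, Meis1, Meis3, Pknox1 and Pknox2 in each of the 9 libraries, with bars from 0. The red Meis2 segment shrinks from 7.43 to 9.12 RPKM in the controls to 3.38 to 3.42 RPKM in the mutant, while the other segments together hold 22.6 to 27.7 RPKM in every library.

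The size of a rise that could have gone unseen can be set against the fall of Meis2 on the same scale. With all exons as length, the fall of Meis2 relative to WT was 5.13 RPKM. The upper end of the 95% confidence interval allowed a rise of 0.409 RPKM for Meis1, which is 7.98% of that fall, and 0.856 RPKM for Meis3, which is 16.7% of it. It allowed 0.319 RPKM for Pknox1 and 1.19 RPKM for Pknox2, or 6.22% and 23.1% of the fall. For Pbx2 and Pbx3 the bounds were 2.21 and 1.16 RPKM, or 43.2% and 22.6%. For Tgif1 the bound was 0.637 RPKM, or 12.4%. Relative to Isl1Cre/+, against a fall of Meis2 of 4.55 RPKM, the corresponding shares ran from 6.47% for Pknox1 to 38.3% for Pbx2. With the longest transcripts as lengths they ran from 4.63% for Pknox1 to 30.03% for Pknox2 relative to WT. For each of the 7 genes taken alone, a rise equal to the fall of Meis2 was therefore outside its interval on both scales. A rise spread over several genes is not bounded by these intervals. The fall is a difference of means, taken without an interval of its own. It counts all reads of Meis2, whether or not a transcript held the flanked exon. With 1 library left out, and against the same fall of Meis2, the highest share was 64.5% with all exons as length (Pbx2) and 53.2% with the longest transcript (Pknox2), both relative to WT. These shares rest on the assumption that a read per kilobase weighs the same in each gene.

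The further TALE genes of the list were rare in these ganglia. Of 9 genes, 3 passed the count filter: Pbx4, a Pbx gene best known from the testis, Tgif2, a relative of Tgif1, and Mkx, a regulator of tendon. Pbx4 had 4.93, 4.67 and 4.27 cpm in WT, 4.12, 4.75 and 4.27 cpm in Isl1Cre/+ and 4.44, 3.72 and 3.86 cpm in the mutant, and its groups overlapped. Its log2 fold change was -0.21 relative to WT and -0.13 relative to Isl1Cre/+ (unadjusted p = 0.248 and 0.421, edgeR). Tgif2 differed by 0.05 and 0.08 and Mkx by -0.04 and 0.17 in the same comparisons on the log2 scale, and none of the 3 was called or had an unadjusted p below 0.05 in any comparison by edgeR, DESeq2 or limma voom. Of all tested genes, 0.318% were called in the mutant relative to WT and 1.67% relative to Isl1Cre/+ (edgeR). Between Isl1Cre/+ and WT the share was 1.40%, so no calls among 3 genes is near the background. For Tgif2, 61.6% of the exonic bases also belong to exons of genes on the other strand, so its reads cannot be assigned with certainty. The 6 Irx genes stayed under the filter. Irx3 was the most abundant of them in counts, with 1.60 ± 0.255 cpm in WT, 1.44 ± 0.0983 in Isl1Cre/+ and 1.58 ± 0.322 in the mutant (SD, n = 3).

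Proteins that work with TALE factors were described by their RNA as well. Of 21 listed partners and regulators, which include co-repressors bound by Tgif1 and the SMAD proteins, all passed the filter and 0 were called in any of the 3 comparisons by edgeR, DESeq2 or limma voom, beside 0.318%, 1.67% and 1.40% of all tested genes (edgeR; mutant relative to WT, mutant relative to Isl1Cre/+ and Isl1Cre/+ relative to WT), so that few or no calls are the background for a list of this size. The unadjusted p was under 0.05 for 1 of them, Crebbp, a histone acetyltransferase and co-activator, in Isl1Cre/+ relative to WT. It differed there by -0.24 on the log2 scale (unadjusted p = 0.0475, edgeR), short of a fold change of 1.2. The median log2 fold change of the 21 was -0.01 in the mutant relative to either control, beside -0.01 and 0.00 over all tested genes. Hdac2 and Ctbp1, a histone deacetylase and a co-repressor, were the most abundant per length. Hdac2 had 56.6 ± 0.703 RPKM in WT, 56.6 ± 1.41 in Isl1Cre/+ and 57.9 ± 2.82 in the mutant (SD, n = 3), and Ctbp1 had 42.5 ± 0.228, 42.9 ± 0.602 and 41.8 ± 2.42 (SD, n = 3).

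Retinoic acid genes stand upstream of Meis genes in many embryonic tissues. Of 19 listed, 17 passed the filter, and 0 were called or had an unadjusted p below 0.05 in the 3 comparisons by edgeR or limma voom, again beside a background of 0.318%, 1.67% and 1.40%, which leaves a count of 0 near what all genes gave. DESeq2 called 1 of them, lower in Isl1Cre/+ than in WT. Relative to Isl1Cre/+, 15 of the 17 had a positive and 2 a negative log2 fold change in the mutant, with a median of 0.15 beside 0.00 over all tested genes. Relative to WT, 13 were positive and 4 negative, with a median of 0.04. Summed, the 19 genes held 426, 269 and 275 cpm in WT, 366, 276 and 234 cpm in Isl1Cre/+ and 241, 511 and 271 cpm in the mutant. In each genotype 1 library stood high, WT library 1, Isl1Cre/+ library 1 and mutant library 2. The most abundant per length were Crabp2, a retinoic acid binding protein, and Aldh1a2, an enzyme that makes retinoic acid. Aldh1a2 had 76.9, 35.1 and 31.9 cpm in WT, 65.5, 37.2 and 20.5 cpm in Isl1Cre/+ and 25.9, 118 and 32.5 cpm in the mutant. The same libraries were the highest of their genotype for this gene.

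Hox proteins bind DNA together with Pbx and Meis proteins. Of 39 listed Hox genes, 24 passed the filter. In the mutant relative to WT, 0 of 24 were called by edgeR, DESeq2 or limma voom, next to a background of 0.318%. None had an unadjusted p below 0.05 there by any of these tools. Relative to Isl1Cre/+, 2 of 24 had an unadjusted p below 0.05 (edgeR). Of these, 1 was called, higher, next to the background of 1.41%. This was Hoxc8, which rose by 0.33 on the log2 scale (SE 0.111, unadjusted p = 0.0197, adjusted p = 0.9997, edgeR). Hoxc8 had 13.3, 9.59 and 10.1 cpm in WT, 8.58, 9.19 and 7.44 cpm in Isl1Cre/+ and 11.01, 9.88 and 10.8 cpm in the mutant. The Isl1Cre/+ libraries were low against both other genotypes. Between Isl1Cre/+ and WT, 2 of 24 were called, both lower, Hoxc8 by -0.37 and Hoxb7 by -0.27 on the log2 scale, next to a background of 1.14%. With limma voom, 1 of 24 was called lower there. The most abundant Hox genes per length were Hoxa7, with 17.6 ± 1.57 RPKM in WT and 19.3 ± 2.73 in the mutant, and Hoxd1, with 14.3 ± 0.654 and 15.4 ± 2.02 RPKM (SD, n = 3). Of the exonic bases of Hoxa7, 20.4% lie opposite exons of Hoxaas3.

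Among the cells of the ganglion, the paper places Meis2 in some classes of touch-sensing neurons and in proprioceptors. The 14 listed markers of mechanoreceptors and proprioceptors all passed the filter and summed to 1849 to 1968 cpm in WT, 1728 to 1887 cpm in Isl1Cre/+ and 1734 to 1946 cpm in the mutant, which overlapped. Taken singly, 11 of the 14 had a negative log2 fold change in the mutant relative to WT, with a median of -0.09 beside -0.01 over all tested genes, and 12 of 14 in Isl1Cre/+ relative to WT, with a median of -0.10 beside 0.00. In the mutant relative to Isl1Cre/+, 7 of 14 were negative, with a median of 0.00. Of the 14, 1 was called lower in the mutant relative to either control, where 0.258% of all tested genes were called lower relative to WT and 0.265% relative to Isl1Cre/+. This was Calb2, a calcium-binding protein, which differed by -1.03 and -0.80 on the log2 scale (unadjusted p = 0.00596 and 0.0384, edgeR), and limma voom did not call it relative to Isl1Cre/+. Cux2, a homeodomain transcription factor, also had a low p relative to Isl1Cre/+ (unadjusted p = 0.0181, edgeR), with a log2 difference of -0.24, short of a fold change of 1.2. Maf, the first marker of that list, had 106, 93.5 and 104 cpm in WT, 91.8, 87.5 and 100.2 cpm in Isl1Cre/+ and 97.9, 108 and 83.2 cpm in the mutant. The 8 markers of satellite and Schwann glia summed to 1071 to 1259, 1068 to 1292 and 1158 to 1188 cpm in WT, Isl1Cre/+ and mutant libraries.

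The genes whose pattern over the 9 libraries was most like that of Meis2 were named by Pearson's r of log2 cpm, among all other tested genes. These points share the TMM scaling and the same libraries, and r is given as a description. Meis2 itself differed most between mutant and control libraries, so r largely follows that difference. The named genes are the extremes of all tested genes, and part of their r comes from this choice. With genotype means removed, r of Meis2 with the other members ran from -0.466 (Pknox1) to 0.875 (Meis3). The highest values were 0.918 for Gm20163, 0.897 for Adgrg3, an adhesion receptor coupled to G proteins, and 0.889 for Kansl1, a subunit of a histone acetyltransferase complex. The lowest were -0.901 for Galntl6, -0.896 for Ipcef1 and -0.888 for Ilk, an integrin-linked kinase. None of the 6 was called in any comparison of the mutant, with unadjusted p from 0.0916 to 0.155 relative to WT and from 0.0463 to 0.154 relative to Isl1Cre/+ (edgeR). The paper, with limma voom and the same cut-offs, lists Gm20163 and Adgrg3 among its genes changed relative to both controls. Gm20163 had 4.65 ± 0.277 cpm in WT, 4.48 ± 0.125 in Isl1Cre/+ and 3.77 ± 0.150 in the mutant, and Galntl6 had 6.67 ± 0.306, 6.97 ± 0.283 and 7.78 ± 0.219 cpm (SD, n = 3). Kansl1 had 95.9 ± 2.14, 93.9 ± 2.24 and 88.6 ± 1.98 cpm in the same order (SD, n = 3). No member of the TALE list was among these 6 genes.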

How the data were processed

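Poly(A) RNA of DRGs was sequenced in 9 libraries, 3 per genotype, grouped by their labels. The authors prepared CORALL libraries with molecular identifiers, mapped the single-end reads to mm10 with STAR 2.7.10, removed duplicates with UMI-tools and counted uniquely mapped reads per gene with HTSeq 0.6 (versions from the submitters' processing notes), so the deposited values are raw counts without normalization. Annotation release and strand option are not given in the sources used here. The same table holds the authors' limma results (log2 fold changes, p-values and scores), which were not used.

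The 13200 genes that reached 100 counts in any library were scaled by TMM, over all 9 libraries for the cpm shown. They were tested in edgeR 4.0.16 (R 4.3.3), each pair of genotypes alone, with two-sided quasi-likelihood tests, Benjamini-Hochberg adjustment over all tested genes and 95% confidence intervals. An exact permutation test of 3 against 3 libraries cannot go below 0.1. The procedure was tested on simulated data. Levels per kilobase (RPKM) were computed here from GENCODE M21 lengths, and 55154 of 55247 identifiers matched this annotation. Positions and sequences are from it (GRCm38, the same assembly as mm10). Alternatives were DESeq2 1.42.0 (its size factors, and its Wald test), limma 3.58.1 voom, library size only, other filters, all genotypes in 1 fit, a replicate block, each library left out and another length.

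The members, lists and tests were chosen with earlier results of these data known. Named are the 8 members, Isl1, other TALE genes past the filter, called and most abundant genes of the partner, retinoic acid and Hox lists, some called or first-listed markers, and the 3 genes most and the 3 least correlated with Meis2. Crebbp, Irx3, Cux2 and the overlapping genes were named after their values were seen. Of the genes under this rule, 1 is not reported here.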

Additional observations from a re-analysis of the deposited data

How the results depend on the processing

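The 8 log2 fold changes were recomputed under 14 alternatives in each of 3 comparisons, 336 values in all, of which 303 kept their direction and call and 33 changed direction. None of those 33 was called, and their causes were not tested. Meis2 was called in every alternative of the mutant comparisons and no other member in any. The lowest unadjusted p of another member was 0.0536 (Meis3, mutant relative to WT without WT library 3, edgeR).

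Mutant relative to WT: Meis1 became 0.0018 with DESeq2 size factors, 0.0017 with DESeq2 and 0.013 without a filter, and Pbx2 became 0.0028 without a filter. Leaving out 1 library gave -0.095 to 0.094 for Meis1, -0.092 to 0.077 for Pbx2, -0.091 to 0.033 for Pknox2 and -0.18 to 0.31 for Tgif1. Mutant relative to Isl1Cre/+: Pbx2 became -0.0029 and Tgif1 -0.0079 by library size only, and Tgif1 was -0.0041 without a filter, -0.033 with voom and -0.031 with the replicate block. Leaving out 1 library gave -0.026 to 0.15 for Meis1, -0.042 to 0.085 for Pbx2, -0.072 to 0.040 for Pknox2 and -0.33 to 0.16 for Tgif1. Isl1Cre/+ relative to WT: by library size only Pknox1 became 0.018 and Pknox2 0.016, and without a filter 0.0044 and 0.0013. Leaving out 1 library gave -0.16 to 0.046 for Meis3, -0.094 to 0.043 for Pbx2, -0.13 to 0.017 for Pbx3, -0.069 to 0.042 for Pknox1 and -0.035 to 0.024 for Pknox2.

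The number of all genes called rose without a filter to 408 for mutant relative to WT, 1028 for mutant relative to Isl1Cre/+ and 845 for Isl1Cre/+ relative to WT. With 100 counts asked of every library it was 139 and 104 for the latter comparisons. Leaving out 1 library gave 40 to 132 calls for mutant relative to WT (132 without WT library 1, 67 without WT library 3, 120 without mutant library 1, 74 without mutant library 2), 167 to 407 relative to Isl1Cre/+ (407 without mutant library 1) and 102 to 340 for Isl1Cre/+ relative to WT (340 without WT library 1, 102 without Isl1Cre/+ library 3). With the longest transcript as length, WT levels were 2.69 RPKM for Meis1, 18.7 for Meis2, 16.6 for Meis3, 13.8 for Pbx2, 8.96 for Pbx3, 6.26 for Pknox1, 29.97 for Pknox2 and 1.62 for Tgif1.

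The replicate numbers did not pair the libraries: deviations of same-numbered libraries correlated from -0.605 (WT 2 and mutant 2) to 0.424 (WT 3 and mutant 3). With the replicate block, Meis2 differed by -1.33 relative to WT (adjusted p = 0.189, edgeR) and by -1.22 relative to Isl1Cre/+ (adjusted p = 0.102, edgeR), and 31, 177 and 236 genes were called in the 3 comparisons. Over all alternatives the adjusted p of Meis2 ran from 3.79e-40 to 0.195 relative to WT and from 2.47e-47 to 0.102 relative to Isl1Cre/+, with the lowest values from DESeq2. Tgif1 had the lowest counts, 109 to 214 per library, and its SE fell from 0.262 to 0.178 relative to WT and from 0.261 to 0.173 relative to Isl1Cre/+ without mutant library 2.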
